A study of Mus musculus with 15 samples.

Results

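The 34 genes described here encode enzymes and carriers of fatty acid oxidation and ketogenesis in mouse liver, with a few of their regulators. They were taken by gene symbol from the authors' deposited table of a comparison named for genotype, which holds 24965 genes. All 34 symbols were found, each on 1 row, and all 34 had an adjusted p. Grouped by compartment, 19 are mitochondrial, 9 are peroxisomal, 3 act in both or are placed differently by source, and 3 are regulators or targets outside both pathways.

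Liver RNA was sequenced from 15 male C57BL/6J mice of 9 weeks of age, all Gata4 fl/fl, that is, with both copies of this zinc finger factor gene floxed. The labels gave 4 fasted Gata4LKO (KO), 4 fasted control, 3 refed KO and 4 refed control livers. KO mice had received AAV8-Tbg-Cre, an adeno-associated virus that carries Cre under the hepatocyte promoter Tbg, and control mice the AAV8 labelled Empty; injections were at 8 weeks, 7 days before collection. Fasted mice went 12 h without food, and refed mice were fasted for 12 h and then given a diet of 69% sucrose and 10% fat for 12 h. The virus was directed at hepatocytes, whereas whole liver was sequenced, so that other liver cells keep their Gata4 alleles. Control mice received no Cre, and within each group the sample titles carry 1 unexplained number, so effects of Cre itself or of a shared cage or litter cannot be told apart from the KO label.

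In the fasted liver, fatty acids released from fat tissue are activated to acyl-CoA, carried into mitochondria as carnitine esters and shortened by repeated rounds of dehydrogenation, hydration, dehydrogenation and thiolysis. The acetyl-CoA that results feeds ketone body synthesis. Peroxisomes shorten very long and branched chains and pass the products on, and the nuclear receptor PPARα raises many genes of both pathways during fasting.

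The deposited table holds 1 comparison and no values per liver. The comparison, with the spread between livers estimated over all 15, was narrowed to 2 readings by single-read genes, as described with the processing. It is taken as KO minus control in fasted livers because the table is named for genotype. Single-read genes allow refed minus fasted in controls equally well, so every direction given here rests on that choice. Refed livers and the response to feeding were not analysed here. Libraries were of similar depth, with relative size factors of 0.912 to 1.11, and the means summed to 1.80e+07 normalized counts. By a count over the whole gene, the livers labelled KO did not have less Gata4 RNA. The authors' deposited table puts the Gata4 log2 fold change at 0.31 ± 0.15 (SE), adjusted p 0.361 (DESeq2 Wald test, Benjamini-Hochberg). Which exons are floxed is not stated in the labels, so this value does not test the deletion, and the groups are named by their labels throughout. Hepatocyte markers were abundant, with means from 2947 to 1.11e+06 normalized counts over 10 genes in the authors' deposited table. In whole liver, fewer cells of a type and less RNA per cell cannot be told apart.

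Of the 34 genes, 1 fell and 0 rose in livers labelled KO, and 33 did not pass the test. That is 2.94% of the members, beside 2.19% of all 13335 genes tested, with 1.60% of all genes tested lower and 0.585% higher. The gene that fell was Decr2, which encodes the peroxisomal dienoyl-CoA reductase needed to degrade polyunsaturated fatty acids. At an unadjusted p under 0.05, the DESeq2 Wald test counted 3 of the 34 genes (Decr2, Acaa1a and Acadm), against 11.4% of all genes tested. The median log2 fold change of the members was 0.02, against 0.01 over all genes tested. Estimates of 28 members lay within 0.2 of 0 on the log2 scale, and 21 within 0.1.

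**Figure D1:**
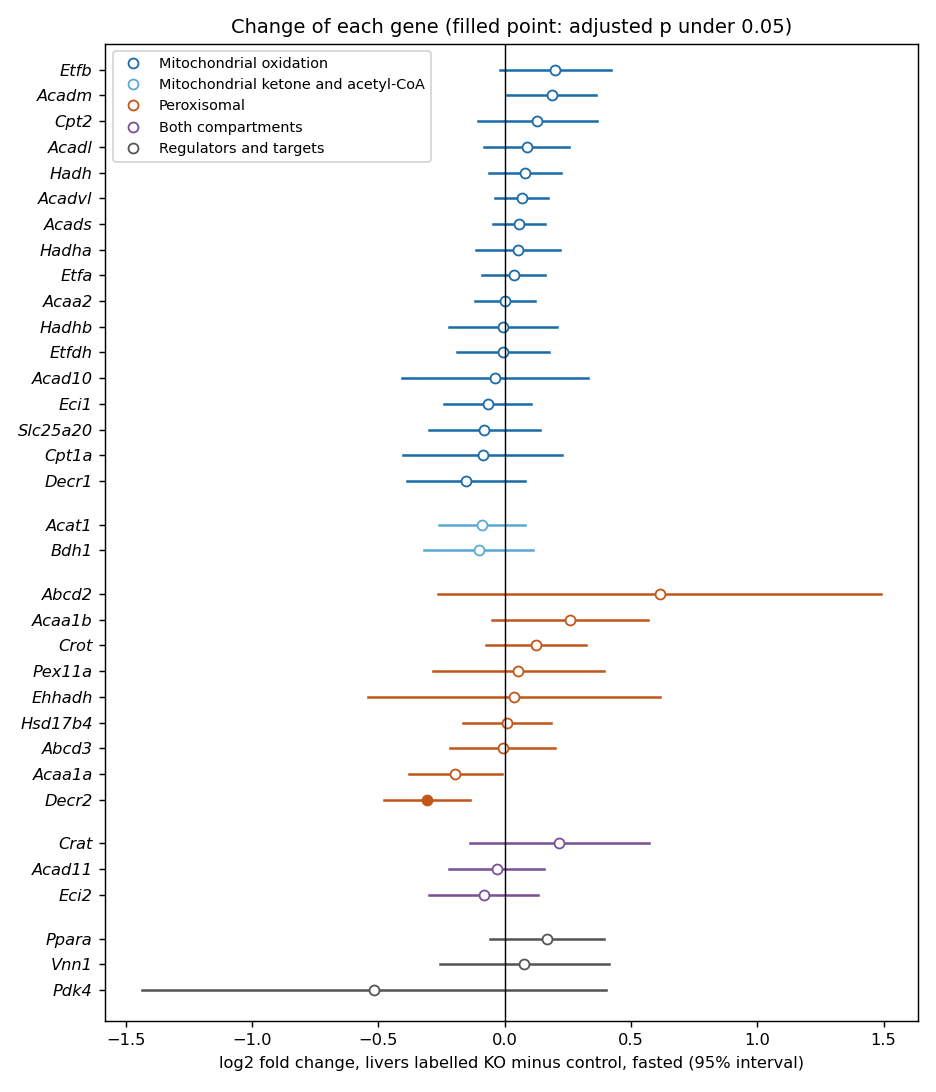
Log2 fold change of each of the 34 genes, livers labelled KO minus control in fasted mice (horizontal axis, points), with 95% intervals (lines), grouped by compartment. Filled points passed an adjusted p under 0.05; Decr2, at -0.31, is the 1 filled point, and Pdk4 and Abcd2 have the widest intervals.

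Decr2 (ENSMUSG00000036775) lies on the minus strand of chromosome 17, from 26081208 to 26090337 (mm10 coordinates of GENCODE M21). The authors' deposited table gives Decr2 3535 mean normalized counts and a change of -0.31 ± 0.09 (SE) on the log2 scale, adjusted p 0.0223 (DESeq2 Wald test, Benjamini-Hochberg). The 95% interval ran from -0.48 to -0.14, so that the level in livers labelled KO was 0.807 times that in controls, with bounds of 0.718 and 0.908. Its mitochondrial counterpart Decr1, which encodes the dienoyl-CoA reductase of that compartment, had a log2 fold change of -0.15 ± 0.12 (SE, the authors' deposited table), short of the threshold. The 2 estimates have the same sign and their intervals overlap, and the difference between them was not tested.

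Because the comparison is over a GATA factor, promoter windows were searched for GATA motifs. The windows are those of RefSeq (GRCm38.p6, the assembly also called mm10), 250 bases before to 50 after the start that RefSeq gives. The search took 4 forms of the motif on both strands, namely AGATAA, the form AGATAG with another last base, the form TGATAA with another first base, and the form TGATAG with both. Such a match is common: 29.8% of the 32851 promoter windows in that table hold at least 1. Promoter windows were found for 27 of the 34 members, and 7 of them had a match, in Acadvl, Bdh1, Crot, Decr2, Eci2, Etfb and Pdk4. Decr2 is among these 7 and is also the only 1 of all 34 members that passed the test. A link between the match and its fall was not tested. For Decr2 the RefSeq start lies inside the GENCODE span given above, within its annotated 5′ UTR, so that most of its window is transcribed in that annotation. The direct repeat that PPARα binds with its partner RXR, searched on both strands as AGGTCA repeated after 1 base and, more loosely, as AGGNCA repeated likewise, was in none of the 27 windows, against 0.0396% and 0.381% of all windows. So rare a repeat would be unlikely in any 27 windows, so its absence does not show that these genes lack a PPARα site. Matches describe letters in a window and show no binding.

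Mitochondrial genes lay close to 0. None of the 19 was called by the DESeq2 Wald test, and 1 reached an unadjusted p under 0.05. Over all genes tested the shares were 2.19% and 11.4%. Of the 19 estimates 10 were above 0 and 9 below, and the median log2 fold change was 0.00. All 19 intervals at the 95% level lay between -0.5 and 0.5, the lowest bound being -0.41 and the highest 0.42. Such an interval was found for 59.5% of all genes tested and for 87.9% of those with a mean of at least 1000 normalized counts. The carnitine entry route was represented by Cpt1a, whose product makes the carnitine ester at the outer membrane and is the main control point, Slc25a20, the carrier across the inner membrane, and Cpt2, which turns the ester back to acyl-CoA. In the authors' deposited table Cpt1a averaged 10734 normalized counts, with a log2 fold change of -0.09 ± 0.16 (SE). Slc25a20 and Cpt2 had log2 fold changes of -0.08 ± 0.11 and 0.13 ± 0.12 (SE, the authors' deposited table). For Cpt1a the interval ran from -0.40 to 0.23, which is 0.756 to 1.17 times the control level.

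Acadvl, Acadl, Acadm and Acads encode the acyl-CoA dehydrogenases of the first oxidation step for chains of decreasing length, and all 4 had small positive estimates. Acadvl, for very long chains, and Acadl, for long chains, stood at 0.07 ± 0.05 and 0.09 ± 0.09 (SE) on the log2 scale in the authors' deposited table. Acadm, for medium chains, had a log2 fold change of 0.19 ± 0.09 (SE), the highest of these estimates, with an adjusted p of 0.390 in the authors' deposited table (DESeq2 Wald test). Acads, for short chains, was at 0.06 ± 0.05 (SE, the authors' deposited table), with the smallest SE of all members. Acad10, a less studied member of the family, was at -0.04 ± 0.19 (SE, the authors' deposited table).

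For the later steps, Hadha and Hadhb, the subunit genes of the trifunctional protein, had log2 fold changes of 0.05 ± 0.08 and -0.01 ± 0.11 (SE, the authors' deposited table). Hadh, a hydroxyacyl-CoA dehydrogenase gene, was at 0.08 ± 0.07 and Acaa2, the thiolase gene, at 0.00 ± 0.06 (SE, the authors' deposited table). The Acaa2 interval, from -0.12 to 0.12, was among the narrowest, and the gene had the highest level per exon length of all members. Eci1, an isomerase gene for unsaturated chains, was at -0.07 ± 0.09 (SE, the authors' deposited table). Electrons from the dehydrogenases pass through the flavoprotein encoded by Etfa and Etfb to the oxidoreductase encoded by Etfdh. Their log2 fold changes were 0.04 ± 0.06, 0.20 ± 0.11 and -0.01 ± 0.09 (SE, the authors' deposited table).

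Of the ketone body enzymes among the members, Acat1 makes acetoacetyl-CoA and Bdh1 interconverts acetoacetate and 3-hydroxybutyrate. Their log2 fold changes were -0.09 ± 0.09 and -0.10 ± 0.11 (SE, the authors' deposited table), and neither passed. The intervals ran from -0.26 to 0.08 for Acat1 and from -0.32 to 0.11 for Bdh1.

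Peroxisomal genes were more spread. Of 9 members 1 fell, 0 rose and 8 did not pass, where 2.19% of all genes tested were called. Of the 9 estimates 6 were above 0 and 3 below, with a median log2 fold change of 0.04. They ranged from -0.31 for Decr2 to 0.61 for Abcd2. Intervals of 6 of the 9 lay between -0.5 and 0.5, against 19 of 19 for the mitochondrial genes, a comparison that was not tested. The transporters Abcd3 and Abcd2, which bring acyl-CoA into peroxisomes, had log2 fold changes of -0.01 ± 0.11 and 0.61 ± 0.45 (SE, the authors' deposited table). Abcd2 had the lowest level per exon length of the 34 genes, and its interval ran from -0.26 to 1.49. The bifunctional enzyme genes Ehhadh and Hsd17b4 were at 0.04 ± 0.29 and 0.01 ± 0.09 (SE, the authors' deposited table). Crot, whose product makes carnitine esters of the shortened chains, was at 0.12 ± 0.10, and Pex11a, which acts in peroxisome division, at 0.05 ± 0.17 (SE, the authors' deposited table).

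The peroxisomal thiolase genes Acaa1a and Acaa1b had estimates of opposite sign, and neither passed. In the authors' deposited table Acaa1a had a log2 fold change of -0.20 ± 0.09 (SE) and an adjusted p of 0.384, while Acaa1b was at 0.26 ± 0.16 (SE) with an adjusted p of 0.570 (DESeq2 Wald test). The difference between them was not tested. Acaa1b had the higher mean, with 80.1% of the summed normalized counts of the pair. These genes lie on chromosome 9, Acaa1a from 119339676 to 119350299 on the plus strand and Acaa1b from 119148023 to 119157093 on the minus strand (mm10). Their coding sequences have 1272 bases each and differ at 44, an identity of 96.5%, with identical stretches of up to 327 bases. The 120 bases with the most differences, 14 in number, are printed to show where the pair is most easily told apart; they are bases 433 to 552 of the GENCODE M21 coding sequence, with differing bases in capitals.
Acaa1a: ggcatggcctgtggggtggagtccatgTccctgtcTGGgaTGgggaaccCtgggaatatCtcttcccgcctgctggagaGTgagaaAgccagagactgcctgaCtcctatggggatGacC
Acaa1b: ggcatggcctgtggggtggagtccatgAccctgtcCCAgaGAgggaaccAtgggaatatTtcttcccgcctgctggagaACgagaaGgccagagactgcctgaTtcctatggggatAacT
Of the 50-base stretches of Acaa1b transcripts, 30.5% also occur in Acaa1a transcripts, and 12.4% of those of Acaa1a occur in Acaa1b. The read counter and its handling of reads that match both genes are not stated in the labels, so the values of this pair are uncertain to that extent.

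Crat, Eci2 and Acad11 act in both compartments or are placed differently by source, and none passed by the DESeq2 Wald test (0 of 3 at an unadjusted p under 0.05). The shares over all genes tested were 2.19% called and 11.4% at that unadjusted p. Crat, whose product transfers acetyl groups to carnitine, was at 0.22 ± 0.18 (SE, the authors' deposited table). Eci2, another isomerase gene for unsaturated chains, was at -0.08 ± 0.11 and Acad11, an acyl-CoA dehydrogenase gene, at -0.03 ± 0.10 (SE, the authors' deposited table).

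Ppara, the receptor gene of the fasting response, averaged 2748 normalized counts, with a log2 fold change of 0.17 ± 0.12 (SE, the authors' deposited table), with an interval from -0.06 to 0.39. Pdk4 encodes a kinase that inactivates pyruvate dehydrogenase and so spares glucose. Its log2 fold change was -0.52 ± 0.47 (SE, the authors' deposited table), and the interval, from -1.43 to 0.40, covers levels from 0.370 to 1.32 times those of controls. Vnn1, a pantetheinase gene that PPARα controls, was at 0.08 ± 0.17 (SE, the authors' deposited table). None of the 3 passed by the DESeq2 Wald test, and 0 of them had an unadjusted p under 0.05. Shares over all genes tested were 2.19% and 11.4%.

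Levels could be set side by side only as means over the 15 livers, here per kb of exon length (the merged exons of GENCODE M21, which may differ from the authors' annotation). Acaa2, at 6957 normalized counts per kb, Acaa1b at 6435 and Ehhadh at 5128 were highest. Abcd2, at 46.6 normalized counts per kb, Acad10 at 108 and Pdk4 at 109 were lowest. The medians were 965 normalized counts per kb for the 19 mitochondrial and 1873 for the 9 peroxisomal genes. The table gives no spread over livers for these means, so neighbours in the order cannot be told apart beyond it.

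**Figure D2:**
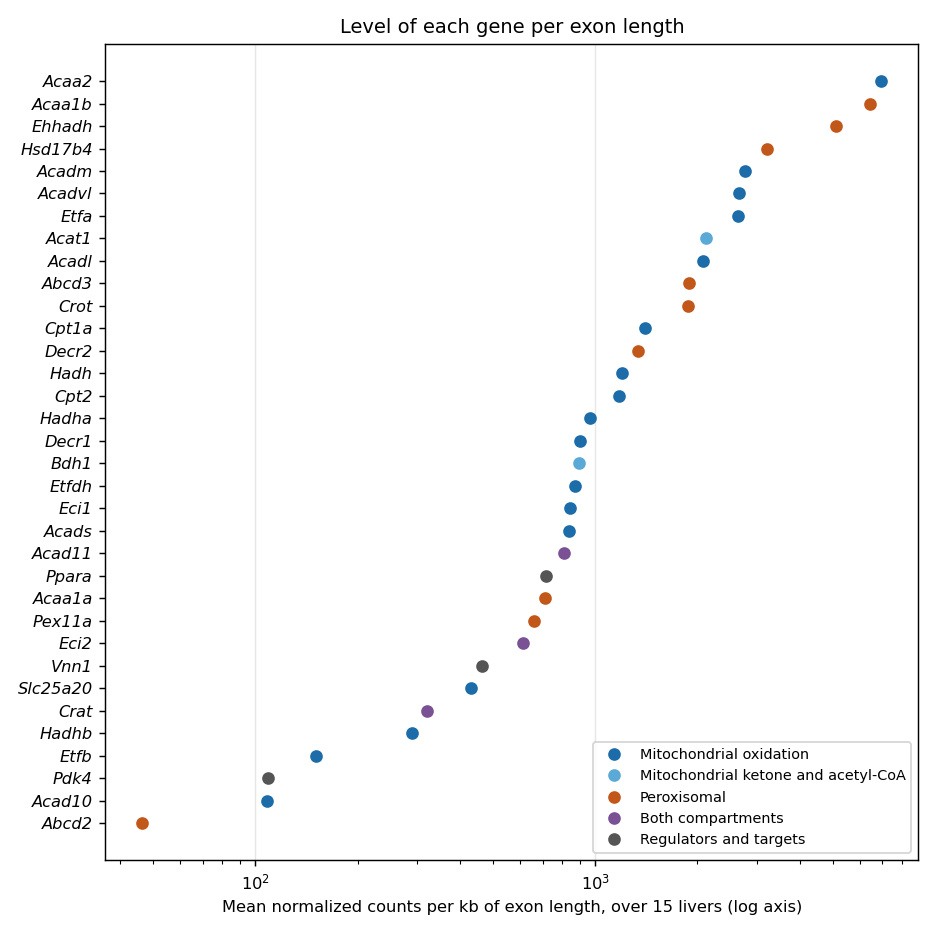
Mean normalized counts per kb of exon length over 15 livers (horizontal log axis) for each of the 34 genes, coloured by compartment; no error is available. Acaa2, Acaa1b and Ehhadh lead at 6957, 6435 and 5128, and Etfb, at 151, lies far below Etfa, at 2625.

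Subunits that form 1 complex differed in these means. Etfa had 2625 and Etfb 151 normalized counts per kb, a ratio of 17.4, although both encode the same dimer. Hadha had 965 and Hadhb 290 normalized counts per kb, a ratio of 3.33. In GENCODE M21 the gene Gm45233 covers 53.0% of the exon length of Etfb on the same strand, and 18.1% of the 50-base stretches of Hadhb transcripts also occur in Gm13910. What share of reads these overlaps remove was not tested. In all, 8 of 34 members share at least 10% of their 50-base stretches with another gene: Acadvl, Acad10, Hadhb, Etfb, Bdh1, Acaa1a, Acaa1b and Eci2. For Acadvl, 26.9% are shared with Dvl2, which overlaps it on the opposite strand. The library kit was stranded but the counter's strand setting is not stated in the labels. Decr2 shares 2.25% of its stretches.

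Precision differed between members. The SE of the log2 fold change ranged from 0.05 for Acads and Acadvl to 0.45 for Abcd2 and 0.47 for Pdk4. Set against up to 500 tested genes of nearest mean, 7 members had an SE at least 2 times the median of those genes: Acad10, Abcd2, Ehhadh, Pex11a, Crat, Pdk4 and Vnn1. For Pdk4 the SE was 4.53 times that median, for Abcd2 4.02 times and for Ehhadh 3.07 times. Of the 10 members with an SE below that median, Acadvl and Acads had the lowest ratios, 0.578 and 0.633. For genes with a mean of at least 1000 normalized counts the SE was converted to an approximate coefficient of variation between livers of a group, as if all groups had the same mean. The SE comes from a fit of all 15 livers, refed ones included, so the coefficient is not a spread observed within 1 group. It came to 28.9% for Ehhadh, 17.6% for Crat, 16.9% for Pex11a and 15.8% for Cpt1a, against 4.59% for Acads and 5.09% for Acadvl. The median over 30 members was 9.61%, against 7.94% over all 2384 tested genes of that abundance.

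**Figure D3:**
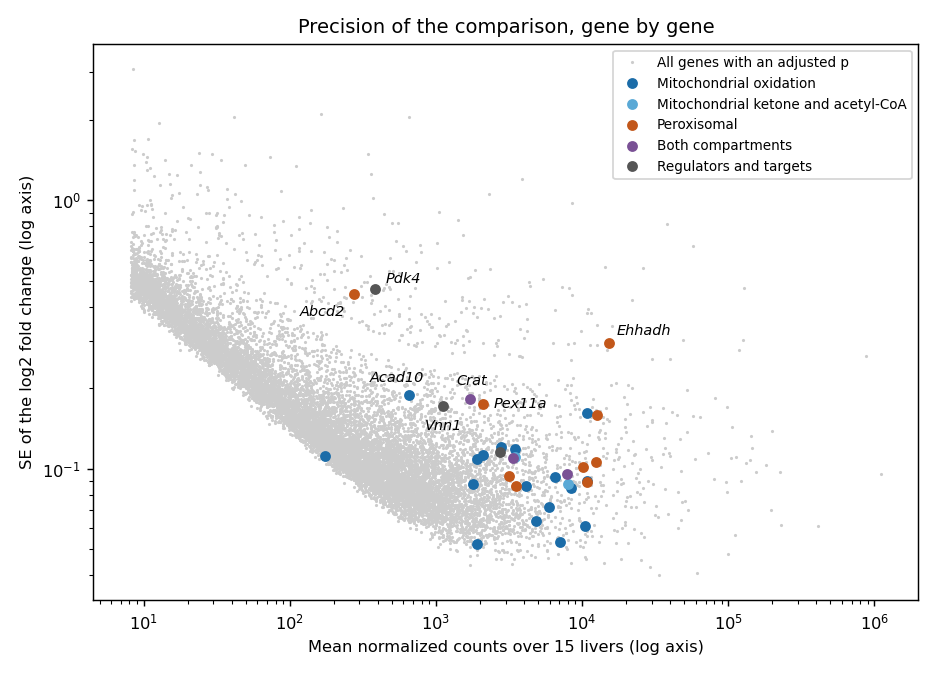
Standard error of the log2 fold change (vertical log axis) against mean normalized counts over 15 livers (horizontal log axis), for all 13335 genes with an adjusted p (grey) and the 34 members (coloured by compartment). The 7 named members have an SE at least 2 times the median of genes of similar mean; Ehhadh, at 0.29, is the most abundant of them.

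The sizes of change that remain possible follow from these errors. Of the 34 intervals, 29 (85.3%) lay between -0.5 and 0.5, against 59.5% of all genes tested. Among genes with a mean of at least 1000 normalized counts, the share was 90% of members and 87.9% of all genes tested. Between -1 and 1 lay 32 of the 34, and 11343 of all 13335 genes tested. The 5 member intervals that reached beyond 0.5 in either direction were those of Abcd2, Acaa1b, Ehhadh, Crat and Pdk4. Those of Abcd2 and Pdk4 also reached beyond 1. A change of 2 times in either direction therefore lay outside the 95% interval for 32 genes, Cpt1a, Ppara and Ehhadh among them. For Pdk4 a change of 2 times lay inside the interval only as a fall, and for Abcd2 only as a rise.

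Other genes of the pathway were taken from a list of 27, of which 26 had an adjusted p. Of these 1 fell, 0 rose and 25 did not pass, where 2.19% of all genes tested were called. The median log2 fold change of the 26 was -0.02. The gene that fell was Nudt7, which encodes a peroxisomal enzyme that cleaves coenzyme A. For Nudt7 the authors' deposited table lists 4384 mean normalized counts, with a log2 value of -0.69 ± 0.20 (SE), adjusted p 0.0297 (DESeq2 Wald test). It did not pass where all genes that have a p entered the adjustment, with an adjusted p of 0.0556 (DESeq2 Wald test). At an unadjusted p under 0.05, 4 of the 26 were lower and 1 was higher, against 11.4% of all genes tested in either direction.

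**Figure D4:**
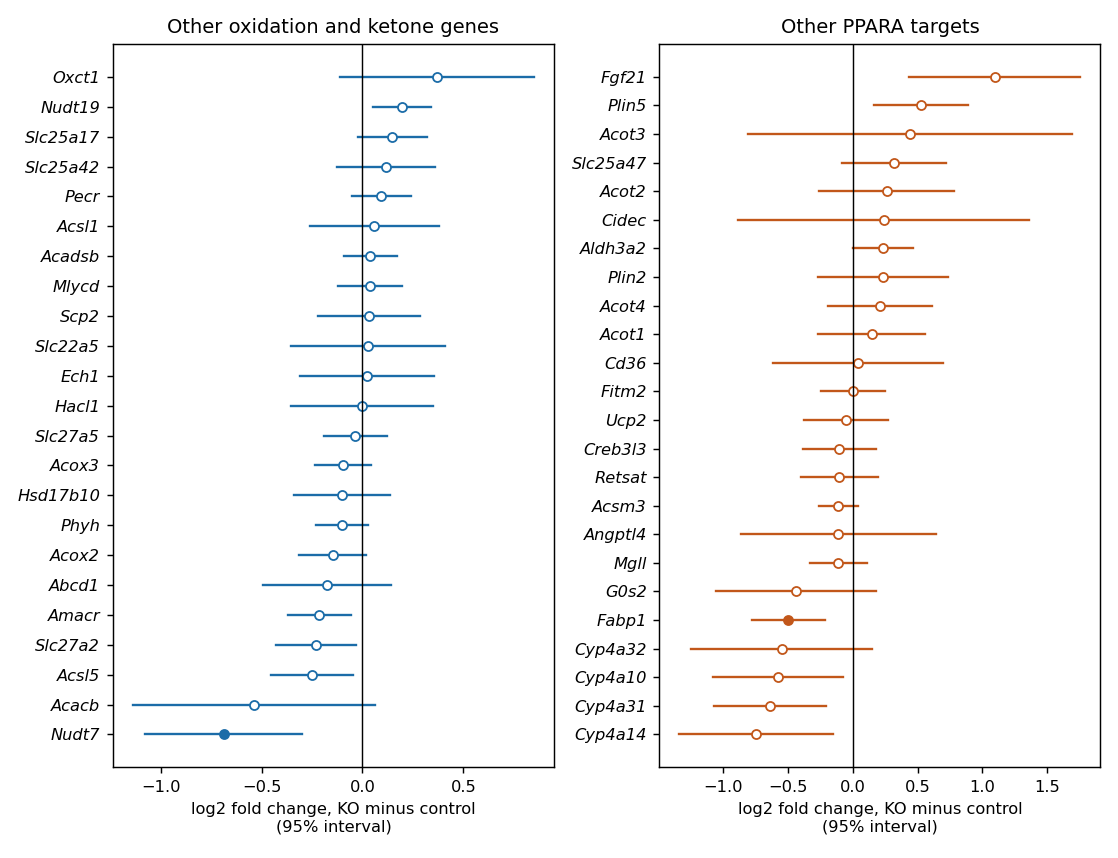
Log2 fold change, livers labelled KO minus control in fasted mice, with 95% intervals (horizontal axes), for 23 of the 26 other oxidation and ketone genes (left) and 24 other PPARα targets (right). Filled points passed an adjusted p under 0.05: Nudt7 at -0.69 and Fabp1 at -0.50.

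Among 24 further PPARα targets 1 fell, 0 rose and 23 did not pass, where 2.19% of all genes tested were called. There were 12 estimates on each side of 0, with a median of -0.02. Fabp1, the liver fatty acid binding protein gene, was the one that passed, at -0.50 ± 0.14 (SE) with an adjusted p of 0.0313 in the authors' deposited table, against 0.0584 where all genes that have a p entered the adjustment (DESeq2 Wald test). At an unadjusted p under 0.05, 4 of the 24 were lower and 3 higher, against 11.4% of all genes tested in either direction. Beside Fabp1 the targets so counted were 6 genes, named after their values were seen, and none of the 6 passed. The lower ones were the fatty acid hydroxylase genes Cyp4a14, Cyp4a31 and Cyp4a10, at -0.75 ± 0.30, -0.64 ± 0.22 and -0.58 ± 0.26 (SE, the authors' deposited table). Read sharing within that gene family was not tested. The higher ones were Fgf21, Plin5 and Aldh3a2. Plin5, a lipid droplet protein gene, was at 0.53 ± 0.18 and Aldh3a2, a fatty aldehyde dehydrogenase gene, at 0.23 ± 0.12 (SE, the authors' deposited table). Fgf21, the fasting hormone gene, was at 1.10 ± 0.34 (SE, the authors' deposited table), with an adjusted p of 0.0505, just outside the threshold (DESeq2 Wald test).

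Partners and regulators of PPARα were not called in 20 of 20 cases by the DESeq2 Wald test, where 2.19% of all genes tested were called. At an unadjusted p under 0.05 there was 1 of the 20, against 11.4% of all genes tested. The 3 of smallest p were Sirt1, a deacetylase gene, Ncoa1, a coactivator gene, and Lpin1, at -0.26 ± 0.12, 0.13 ± 0.08 and 0.74 ± 0.48 (SE) on the log2 scale in the authors' deposited table. Of 15 peroxisome assembly genes, 0 were called by the same test and 0 had an unadjusted p under 0.05. All 15 intervals lay between -0.5 and 0.5, against 59.5% of all genes tested. Pex13, Pex7 and Pex16, the 3 of smallest p, were at 0.13 ± 0.07, 0.09 ± 0.06 and -0.15 ± 0.11 (SE) on the log2 scale in the authors' deposited table.

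Of the 7 Kupffer cell markers 0 were called by the DESeq2 Wald test, with 1 at an unadjusted p under 0.05; all 7 estimates were negative, from -0.50 to -0.12, with means from 49.1 to 565 normalized counts in the authors' deposited table. Endothelial (7), stellate (6), cholangiocyte (4 with an adjusted p) and lymphocyte (2) markers also had 0 called, with 2, 0, 0 and 2 at an unadjusted p under 0.05. Of the endothelial ones so counted 1 was higher and 1 lower. The 2 lymphocyte markers were lower, with means of only 8.44 and 15.2 normalized counts. Over all genes tested, 2.19% were called and 11.4% had an unadjusted p under 0.05. Of the adipose markers 2 had an adjusted p, and both were higher at an unadjusted p under 0.05. Cfd rose, at 3.20 ± 0.96 (SE) with a mean of 9.36 normalized counts in the authors' deposited table. The other adipose marker, with a mean of 80.5 normalized counts, was at 0.67 and did not pass. None of the striated muscle markers had an adjusted p. Among hepatocyte markers Apoa1 fell, at -0.48 ± 0.11 (SE, the authors' deposited table), and the other 9 did not pass. The part of other cells in the values of the members was not tested.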

How the data were processed

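Per the submitters' processing notes, the authors' tools were DESeq2, FastQC and STAR 2.6.0c, with genome mm10; no source used here names the read counter, its strand setting or the annotation. RNA was total RNA in stranded KAPA libraries, per the labels' protocols. The deposited mean is a signal (an average over libraries of counts scaled by size factor), per the file headers. The deposited log2 fold change and its standard error are on the log2 scale, per the file headers. The deposited Wald score equals their ratio. The deposited p-value is of that test, and Benjamini-Hochberg adjustment over the 13335 genes from a mean of 8.20 upward gives back the adjusted p (largest difference 7.02e-15). The table was not refitted, since it holds no counts per liver. Depth per liver is known only as relative size factors. The p-values set each estimate against an SE from a fit of all 15 livers.

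The header names no groups. For 166 genes with 1 read in 1 library, estimate and standard error have a closed form in the authors' model, because fitted means are held at 0.5. Of 864 readings (designs, baselines, contrasts and assignments of libraries to groups), 2 matched within 1e-06 and the closest other differed by 2.64e-05. Both are interaction models of 15 libraries with fasted control as baseline: fasted KO minus fasted control, or control refed minus control fasted. The first was taken because the table is named for genotype. Of 8 genes under strong feeding control, 6 were not called, Pck1 and Igfbp1 among them, and Srebf1 and Fasn, which refeeding is known to raise, fell. For the 6 genes not called this is weak support, since 0 of the 8 intervals lay within 0.5 of 0. The 95% intervals of Srebf1 (-1.13 to -0.32) and Fasn (-1.13 to -0.41) lay below 0. Gata4 itself was not lower, but the floxed exons are not stated, so that value does not decide between the readings.

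A gene was called at a deposited adjusted p under 0.05; 95% intervals are normal. Python 3.11.15, pandas 2.3.3 and scipy 1.17.1 were used, and the steps were tested on simulated data. The rule for named genes took all members, Gata4, and from each other list the called genes or, where none was called, the 3 of smallest p; Cyp4a10, Cyp4a14, Cyp4a31, Fgf21, Plin5, Aldh3a2, Pck1 and Igfbp1 fall outside it and were picked with their values in view. The members and lists were chosen with earlier results of these data known; an overlapping list with 0 called genes was among those results. Alternatives changed the genes adjusted over, the centring, the grouping of genes of both compartments and the interval level. Some genes of the lists are counted but not reported singly here. Promoters are RefSeq windows of GRCm38.p6.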

Additional observations from a re-analysis of the deposited data

How the results depend on the processing

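No paired analysis was possible because single livers have no values in the table. Leaving out a liver, normalizing otherwise and fitting fasted livers alone were therefore not run. The count of 1 called member, Decr2, was the same under each of 5 alternatives (adjusting over all genes that have a p, over those with means from 10 or from 100, or over protein-coding genes, and centring on the median of all tested genes), with adjusted p from 0.0169 to 0.0416. Adjusted over every gene with a p, the other oxidation genes had 0 calls in place of 1, the other PPARα targets 0 in place of 1, and the feeding-controlled genes 1 in place of 2. The PPARα targets had 2 calls, Fgf21 among them, adjusted over genes with means from 10 and over protein-coding genes. In these alternatives fewer or more genes enter the adjustment. Calls over all genes went from 292 to 223 when every gene with a p was adjusted over. They were 297 over genes with means from 10 and 270 over protein-coding genes. The 99% intervals of 24 members lay between -0.5 and 0.5, against 29 at 95%. The median of the mitochondrial genes, 0.00, was -0.01 after centring.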
